A study of Mus musculus with 12 samples.

Results

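The genes described here are 9 genes of cellular iron handling and lipid peroxide control in mouse heart: Tfrc, Slc11a2, Fth1, Ftl1, Slc40a1, Ireb2, Aco1, Gpx4 and Acsl4. They were listed by name for their part in iron import, storage, export and lipid peroxide control, with earlier results of these data known, and are 9 of the 33615 gene symbols in the deposited table. Their RNA was measured by bulk sequencing of frozen heart tissue of mice that had a sham operation (Sham), ischemia for 30 min followed by reperfusion for 2 h (I/R), or that injury together with ML264 (I/R + ML264). ML264 is a small molecule used to inhibit the transcription factor KLF5, whose role in this injury the study addressed. Each group had 4 libraries, all labelled 2 h. The labels give no strain, sex or age of the mice and no dose, route or timing of ML264. No group of uninjured hearts with ML264 is among the samples.

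Cells take up transferrin-bound iron through the transferrin receptor, move it out of endosomes with a divalent metal transporter, store it in ferritin and release it through ferroportin. When iron is scarce, the iron regulatory proteins bind hairpins in mRNAs, the iron-responsive elements (IREs), which blocks translation where the hairpin lies in the 5′UTR and protects the mRNA where it lies in the 3′UTR. Free ferrous iron drives peroxidation of membrane phospholipids. Ferroptosis is the form of cell death that follows when the lipid peroxidase GPX4 does not keep up with this, and it is favoured by ACSL4, which loads polyunsaturated fatty acids into those phospholipids. Reperfused heart muscle is one of the tissues in which it has been studied.

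The IREs are shown because this control acts through them. The UTRs of GENCODE M21 (GRCm38) were searched on the mRNA strand for the letters CNNNNNCAGTGN, with the last base not G and the 5 bases after the first C pairing with the 5 after the loop (G with T allowed). Such a site was present in 4 of the 9 genes and in 123 of 21877 coding genes searched (0.56%). The letters alone were present in 41.3% of the coding genes. Capitals mark the bulged C and the loop.
Fth1, 5′UTR, chr19:9982732-9982760, plus strand: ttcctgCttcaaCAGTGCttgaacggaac
Ftl1, 5′UTR, chr7:45459779-45459807, minus strand: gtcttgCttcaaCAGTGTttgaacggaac
Slc40a1, 5′UTR, chr1:45925465-45925493, minus strand: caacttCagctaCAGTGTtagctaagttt
Tfrc, 3′UTR, chr16:32631219-32631247, plus strand: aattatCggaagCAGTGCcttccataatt
Tfrc, 3′UTR, chr16:32631598-32631626, plus strand: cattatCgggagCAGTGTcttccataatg
Tfrc, 3′UTR, chr16:32631663-32631691, plus strand: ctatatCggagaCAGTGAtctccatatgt
Tfrc, 3′UTR, chr16:32631710-32631738, plus strand: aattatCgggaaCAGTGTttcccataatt
Tfrc thus held 4 such sites, all in its 3′UTR, while the ferritin genes and ferroportin held 1 each in the 5′UTR. A match is a description of the sequence. No match says only that these letters and pairs are not in the annotated UTRs, and does not place a gene outside this control.

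Libraries held 22.26 to 29.93 M estimated counts, of which mitochondrially encoded RNA took 35.24% to 41.13%. Values are CPM (counts per 1 M counts, after TMM scaling), and 3 counts correspond to 0.1002 to 0.1348 CPM. A gene is said to have risen or fallen where edgeR's quasi-likelihood test gave a Benjamini-Hochberg adjusted p under 0.05 over the 15952 genes tested. All 9 genes were among those tested. The heart label was checked on 11 cardiomyocyte markers, which together reached 94300 to 114000 CPM in each library. Most of each sum was Ttn, at 64800 to 77800 CPM. The Y-linked gene Ddx3y stood at 39.48 to 50.7 CPM in 8 libraries and at 0.11 to 0.53 CPM in 4, namely I/R 1, I/R 4, I/R + ML264 1 and I/R + ML264 2, so every Sham library was high. The clock gene Arntl was high in 3 libraries, Sham 2, Sham 3 and I/R 1, with 10.58 to 16.56 CPM against 0.94 to 3.29 CPM elsewhere. For the called iron and ferroptosis genes named here, other than Ptgs2 and Bach1, fits that take these libraries into account are given with the result. Because the tissue is bulk, fewer cells of a type and less RNA per cell cannot be told apart.

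In I/R against Sham, 1 of the 9 genes was called, the rise of Acsl4, where 7.75% of all genes tested were called and 4.58% were called higher. An unadjusted p under 0.05 was reached by 6 of the 9 and by 3698 of the 15952 genes tested. The groups did not overlap in CPM for 3 of the 9, Tfrc, Aco1 and Acsl4, against 15.8% of all genes tested. In I/R + ML264 against I/R none of the 9 was called and none had groups that did not overlap, with 0.0502% called and 5.62% not overlapping over all genes. DESeq2 also called none of the 9 there, with 144 genes called in all. An unadjusted edgeR p under 0.05 was reached by 2 of the 9, Tfrc and Acsl4, and by 1659 of the 15952 genes tested. In I/R + ML264 against Sham the fall of Tfrc was called, where 0.288% of all genes were called and 0.0313% were called lower. There, Tfrc and Fth1 had groups that did not overlap, against 7.37% of all genes. The comparisons share groups, so they are not independent of each other.

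**Figure D1:**
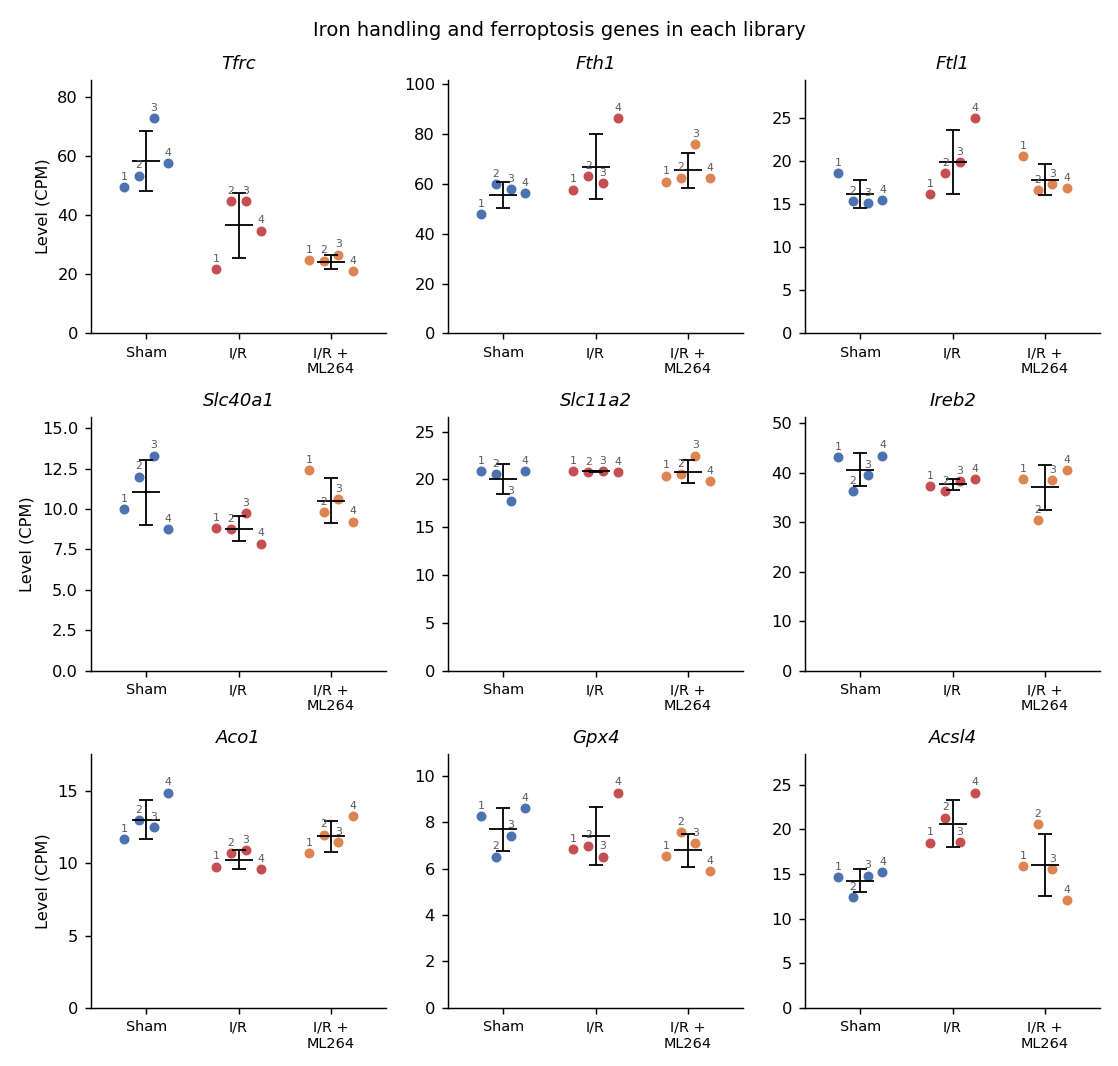
Level in CPM (counts per 1 M counts, linear axis from 0) of each of the 9 genes in the 12 libraries, with 4 per group; points carry the library number, and the bar and whiskers are the mean and SD. Tfrc runs from 49.7 to 72.9 CPM in Sham and from 21.1 to 26.7 CPM in I/R + ML264, whereas the points of Slc11a2, Ireb2 and Gpx4 overlap in all 3 groups.

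Tfrc encodes the transferrin receptor, the main import route for transferrin-bound iron, and lies at chr16:32608920-32632794 (plus strand, GRCm38). In Sham, libraries 1 to 4 stood at 49.7, 53.5, 72.9 and 57.8 CPM. The I/R libraries stood at 21.7, 44.9, 45 and 34.9 CPM, and the I/R + ML264 libraries at 24.9, 24.7, 26.7 and 21.1 CPM. Every injured library was below every Sham library, the 4 treated libraries lay within a narrow band at the bottom, and I/R library 1 lay inside that band, so the I/R and treated groups overlapped.

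The group means of Tfrc were 58.5 ± 10.2 CPM in Sham, 36.6 ± 11 CPM in I/R and 24.3 ± 2.35 CPM in I/R + ML264 (SD, n = 4). In I/R + ML264 against Sham, Tfrc fell by 1.26 ± 0.21 on the log2 scale (SE; 95% interval −1.71 to −0.82; adjusted p = 0.0308), to 0.416 times the Sham level. It ranked 28 of all genes tested by p in that comparison. In I/R against Sham the log2 difference was −0.68 ± 0.20 (−1.12 to −0.24), which did not pass in edgeR (adjusted p = 0.0654) and did in DESeq2 (adjusted p = 0.00641). In edgeR it passed with upper-quartile in place of TMM factors (adjusted p = 0.0492) and with a non-robust spread (adjusted p = 0.0395). Of 13 alternative fits, 9 left it uncalled. Between treated and untreated I/R hearts the log2 difference was −0.59 ± 0.20 (−1.03 to −0.14), with an unadjusted p of 0.0143 and an adjusted p of 0.338. So the treated hearts passed against Sham and not against I/R.

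The call of Tfrc in treated hearts against Sham ended in single fits without Sham library 2, 3 or 4, I/R library 4, or I/R + ML264 library 2 or 4 (adjusted p = 0.0566 to 0.111), while its log2 difference stayed between −1.34 and −1.14 in all 12 such fits. Within the 8 libraries with Ddx3y above 10 CPM, it was −1.29 (adjusted p = 0.0162). With the Ddx3y level as a covariate it was −1.10 (adjusted p = 0.142), and with the Arntl level −1.40 (adjusted p = 0.11). The I/R libraries low in Ddx3y, 1 and 4, were the lowest I/R libraries for Tfrc, at 21.7 and 34.9 CPM. I/R library 1, the lowest of all I/R libraries, is also high in Arntl. Without it, the log2 difference of I/R + ML264 from I/R was −0.77 (adjusted p = 0.0538) and that of I/R from Sham −0.49 (adjusted p = 0.0388). Within the Ddx3y-high libraries these 2 differences were −0.91 (adjusted p = 0.177) and −0.38 (adjusted p = 0.192).

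Markers of erythroid and endothelial cells were read beside Tfrc, and which cells held Tfrc was not measured. The 9 erythroid markers summed to 227 to 269 CPM in Sham, 244 to 302 CPM in I/R and 236 to 319 CPM in I/R + ML264, so the groups overlapped. Sham libraries 1 to 4 stood at 269, 262, 266 and 227 CPM, and I/R + ML264 libraries 1 to 4 at 247, 236, 319 and 318 CPM. Most of each sum was Ank1, which muscle also expresses, at 175 to 245 CPM. The 10 endothelial markers summed to 563 to 621 CPM in Sham, 463 to 519 CPM in I/R and 439 to 543 CPM in I/R + ML264, with every injured library below every Sham library. Where 3.17% of all genes were called lower, 2 of the 10 fell in I/R against Sham, the receptors Kdr (−0.78 ± 0.19, adjusted p = 0.0323) and Tek (−0.45 ± 0.11, adjusted p = 0.0221). The other 8 were not called. The log2 difference was negative for 6 and positive for 4, among them Pecam1 (0.05), Cdh5 (0.04), Vwf (0.21) and Cldn5 (0.77). Kdr, with means of 155 CPM in Sham and 90.3 CPM in I/R, made up much of the drop in the sum. No marker of either list was at 0 in all libraries. Their part in the Tfrc result was not tested.

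Slc11a2 encodes the divalent metal transporter that carries iron out of endosomes, and lies at chr15:100387898-100425072 (minus strand). It ranged from 17.7 to 20.9 CPM in Sham, 20.8 to 20.9 CPM in I/R and 19.8 to 22.5 CPM in I/R + ML264. All but Sham library 3 lay between 19.8 and 22.5 CPM. The log2 difference in I/R against Sham was 0.06 ± 0.09 (95% interval −0.13 to 0.24; adjusted p = 0.748), and in I/R + ML264 against I/R it was 0.00 ± 0.09 (−0.19 to 0.18; adjusted p = 0.998).

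Fth1 and Ftl1 encode the heavy and light chains of ferritin, the iron storage shell, and lie at chr19:9980598-9985098 (plus strand) and chr7:45457944-45459884 (minus strand). For Fth1 the Sham libraries stood at 47.9, 60, 57.9 and 56.2 CPM, the I/R libraries at 57.7, 63.2, 60.3 and 86.2 CPM, and the I/R + ML264 libraries at 60.9, 62.5, 75.8 and 62.3 CPM. Every treated library was above every Sham library, with 60.9 CPM the lowest treated and 60 CPM the highest Sham value, and the I/R libraries overlapped Sham. Fth1 was 0.27 ± 0.12 higher in I/R on the log2 scale (adjusted p = 0.184) and 0.24 ± 0.12 higher in I/R + ML264 against Sham (adjusted p = 0.42). Neither difference passed.

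Ftl1 ran from 15.2 to 18.6 CPM in Sham, 16.2 to 25 CPM in I/R and 16.7 to 20.6 CPM in I/R + ML264. The ranges overlapped in all comparisons. Its difference in I/R against Sham was 0.30 ± 0.13 (adjusted p = 0.163) and between treated and I/R hearts −0.15 ± 0.13 (adjusted p = 0.719). Of its 31-base words, 64.1% also occur in transcripts of other genes, mostly a processed pseudogene of Ftl1, so its counts are uncertain. Both chains were highest in I/R library 4, at 86.2 CPM for Fth1 and 25 CPM for Ftl1.

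A processed pseudogene of the heavy chain, Fth-ps2 (chr6:39653450-39653965, minus strand), is outside the 9 genes and was chosen after its values were seen. It stood at 1.31 ± 0.14 CPM in Sham, 3.04 ± 0.703 CPM in I/R and 2.46 ± 0.473 CPM in I/R + ML264 (SD, n = 4). It rose by 1.22 ± 0.23 on the log2 scale in I/R against Sham (adjusted p = 0.00503), while Fth1 itself did not pass. With the Ddx3y and Arntl levels together as covariates its difference was 1.46 (adjusted p = 0.0525). Of its 31-base words 4.5% occur in other genes, chiefly Fth1, and the kit does not mark strand.

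Slc40a1 encodes ferroportin, the cellular iron exporter, and lies at chr1:45908068-45926523 (minus strand). It stood at 10, 12, 13.3 and 8.77 CPM in Sham, 8.79, 8.77, 9.73 and 7.86 CPM in I/R and 12.4, 9.81, 10.6 and 9.22 CPM in I/R + ML264. The Sham libraries spread over the values of both other groups. Its difference in I/R against Sham was −0.33 ± 0.14 (adjusted p = 0.174) and between treated and I/R hearts 0.26 ± 0.14 (adjusted p = 0.553), so neither passed.

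The iron regulatory proteins IRP1 and IRP2 are encoded by Aco1 (chr4:40143081-40198338, plus strand), which is also the cytosolic aconitase, and Ireb2 (chr9:54863789-54912530, plus strand). Aco1 stood at 11.7, 13, 12.5 and 14.9 CPM in Sham, 9.78, 10.7, 10.9 and 9.58 CPM in I/R and 10.7, 12, 11.5 and 13.3 CPM in I/R + ML264. Every I/R library was below every Sham library, and the treated libraries overlapped both groups. In I/R against Sham Aco1 differed by −0.35 ± 0.11 (95% interval −0.58 to −0.11), which missed the threshold in edgeR (adjusted p = 0.0735) and passed in DESeq2 (adjusted p = 0.0406). Aco1 also passed in edgeR with upper-quartile in place of TMM factors (adjusted p = 0.0443), and 11 of 13 alternative fits left it uncalled. Its difference in I/R + ML264 against I/R was 0.21 ± 0.11 (adjusted p = 0.544).

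Ireb2 ran from 36.3 to 43.5 CPM in Sham, 36.3 to 38.7 CPM in I/R and 30.4 to 40.6 CPM in I/R + ML264. Its difference in I/R against Sham was −0.11 ± 0.09 (95% interval −0.31 to 0.09; adjusted p = 0.534) and between treated and I/R hearts −0.02 ± 0.09 (adjusted p = 0.956).

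Gpx4 encodes the glutathione peroxidase that reduces phospholipid hydroperoxides, and lies at chr10:80047166-80056439 (plus strand). It ran from 6.52 to 8.6 CPM in Sham, 6.52 to 9.28 CPM in I/R and 5.91 to 7.59 CPM in I/R + ML264. The groups overlapped throughout. Its difference was −0.06 ± 0.15 in I/R against Sham (adjusted p = 0.865) and −0.13 ± 0.15 between treated and I/R hearts (adjusted p = 0.816). Of its 31-base words 38.9% occur in other genes, chiefly a pseudogene of Gpx4, so its counts are uncertain.

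Acsl4 encodes the long-chain acyl-CoA synthetase that prefers arachidonic acid, and lies at chrX:142317993-142390535 (minus strand). It stood at 14.6, 12.4, 14.8 and 15.2 CPM in Sham, 18.5, 21.3, 18.6 and 24.1 CPM in I/R, and 15.9, 20.6, 15.5 and 12.1 CPM in I/R + ML264. All 4 I/R libraries were above all 4 Sham libraries, and the treated libraries ran from below the lowest Sham library to within the I/R range. Acsl4 rose by 0.53 ± 0.14 on the log2 scale in I/R against Sham (95% interval 0.23 to 0.83; adjusted p = 0.0298), a 1.45-fold difference. The treated libraries differed from I/R by −0.36 ± 0.14 (−0.66 to −0.06; adjusted p = 0.374) and from Sham by 0.17 ± 0.14 (−0.13 to 0.47; adjusted p = 0.659), neither of which passed.

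The Acsl4 call ended in single fits without any 1 of the 4 Sham libraries or without I/R library 2 or 4 (adjusted p = 0.0543 to 0.096), with log2 differences of 0.45 to 0.58 over all 12 such fits. Acsl4 is X-linked, and 2 of the 4 I/R libraries were low in Ddx3y. Within the Ddx3y-high libraries its difference was 0.49 (adjusted p = 0.0717), with the Ddx3y level as a covariate 0.42 (adjusted p = 0.123), and with the Arntl level 0.47 (adjusted p = 0.119). With both levels it was 0.25 (adjusted p = 0.598).

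**Figure D2:**
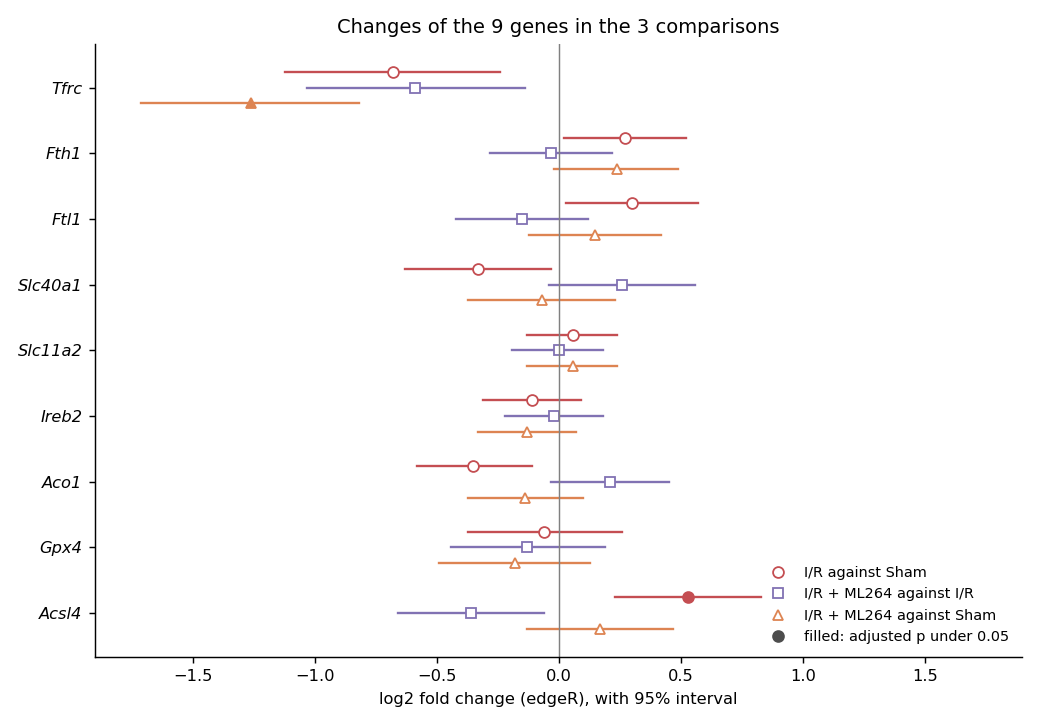
Log2 fold change (horizontal axis, edgeR) of each of the 9 genes in the 3 comparisons, with its 95% interval as a line; filled symbols have an adjusted p under 0.05. The 2 filled symbols are Acsl4 in I/R against Sham (0.53) and Tfrc in I/R + ML264 against Sham (−1.26).

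Levels were divided by the kilobases of the longest coding transcript, as a rough comparison between genes. On this scale the ferritin heavy chain was first in every group and the light chain second. The places of Ftl1 and Gpx4 are uncertain, as their counts are. Fth1 averaged 37.1 ± 3.56 CPM per kilobase in Sham hearts, 44.8 ± 8.77 after I/R and 43.8 ± 4.68 after I/R + ML264, and Ftl1 16.7 ± 1.7, 20.6 ± 3.85 and 18.5 ± 1.89 (SD, n = 4). The libraries of these 2 genes did not overlap in any group. Tfrc was the third in Sham at 12 ± 2.08 CPM per kilobase, above Gpx4 without overlap. In I/R, at 7.48 ± 2.25, it overlapped Gpx4, and in I/R + ML264, at 4.98 ± 0.48, it was the fifth, behind Gpx4 and Ireb2 and overlapping Ireb2 and Slc11a2.

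The lower places changed with the group. Acsl4 was last of the 9 in Sham, at 2.70 ± 0.238 CPM per kilobase, where its libraries overlapped those of Slc40a1. It was the seventh in I/R, at 3.91 ± 0.508, above Aco1 without overlap, and last again in I/R + ML264, at 3.03 ± 0.66, where its libraries overlapped those of Aco1. These levels use one annotated length per gene, and isoforms were not told apart.

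Ratios of 2 genes within a library do not depend on how libraries are scaled. The log2 ratio of Tfrc to Slc40a1, import to export, was 1.77, 1.62, 1.92 and 2.18 in the Sham libraries, 0.77, 1.82, 1.67 and 1.61 in the I/R libraries, and 0.47, 0.79, 0.79 and 0.66 in the treated libraries. The treated libraries were all below Sham, and I/R library 1 alone of the I/R libraries lay among them. The difference of I/R + ML264 from Sham was −1.20 (exact permutation, two-sided p = 0.0286, the smallest that 4 against 4 libraries can give; 0.114 adjusted over 12 tests). The log2 ratio of Acsl4 to Gpx4 was −1.59, −1.48, −1.41 and −1.58 in the Sham libraries, −0.98, −0.8, −0.9 and −1.03 in the I/R libraries, and −1.13, −0.97, −1.28 and −1.37 in the treated libraries. Here Sham lay below both other groups without overlap, and I/R and treated libraries overlapped. Its difference was 0.59 in I/R against Sham and 0.33 in I/R + ML264 against Sham (exact permutation, each p = 0.0286, adjusted 0.114), with the uncertainty of the Gpx4 counts.

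The ratio of heavy to light ferritin chain differed by −0.03 between I/R and Sham and that of Ireb2 to Aco1 by 0.23 (exact permutation, adjusted p = 0.935 and 0.171). The ferritin ratio carries the uncertainty of the Ftl1 counts. None of the 12 ratio tests passed after adjustment, and the design allowed none to pass unless several reached the smallest p together.

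**Figure D3:**
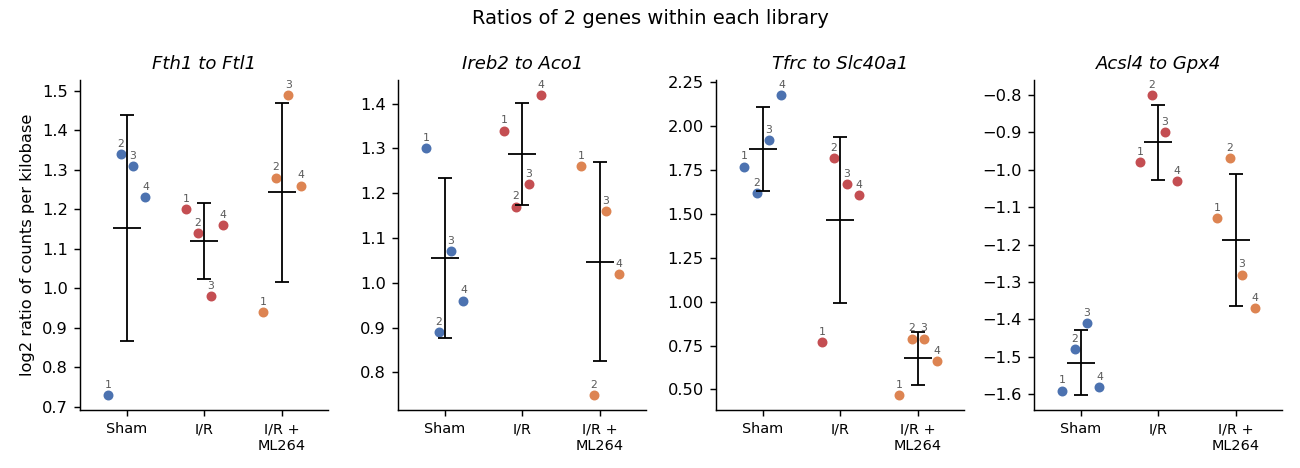
Log2 ratio of counts per kilobase (vertical axis, scale differs between panels) for 4 pairs of genes in each of the 12 libraries; points carry the library number, and the bar and whiskers are the mean and SD. Acsl4 to Gpx4 runs from −1.59 to −1.41 in Sham and from −1.03 to −0.8 in I/R.

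The 3 genes most like Acsl4 in log2 CPM over the 12 libraries, among the 6604 genes whose log2 CPM averaged 3 or more, were Foxp2 (Pearson r = 0.91), Dcun1d3 (0.909) and Bcar1 (0.894). Those most like Tfrc were Uhrf1bp1 (0.849), Csf1 (0.83) and Fam118b (0.823). These are descriptions over libraries that share the group differences.

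A wider set of 172 iron and ferroptosis genes, in 9 lists that include the 9 genes, was read in the same fit, and 154 were tested. In I/R against Sham 13 rose and 1 fell, which is 9.09% against 7.75% of all genes, of which 3.17% were called lower, and the median log2 difference of the 154 was 0.02 against 0 over all genes. The share called, counting rises and falls alike, was near that of all genes. The split by direction was not. Among the 154, 13 rose and 1 fell, while over all genes 731 (4.58%) rose and 505 (3.17%) fell. This difference in direction was not tested. Between treated and untreated I/R hearts edgeR and DESeq2 called 0 of the 154. An unadjusted edgeR p under 0.05 was reached by 17 of the 154 and by 1659 of the 15952 genes tested. Between treated hearts and Sham the fall of Tfrc was the 1 edgeR call among the 154, where 0.288% of all genes were called. DESeq2 called 3 of the 154 and 354 genes in all.

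Among 14 iron uptake genes tested, 1 rose, where 4.58% of all genes were called higher. This was Slc39a14 (ZIP14), which carries iron not bound to transferrin. It stood at 43.8 ± 6.12 CPM in Sham, 65.5 ± 4.14 CPM in I/R and 53.5 ± 9.43 CPM in I/R + ML264 (SD, n = 4), without overlap of Sham and I/R. It rose by 0.58 ± 0.12 (adjusted p = 0.00852). Of 9 storage genes, which include Fth1 and Ftl1, edgeR and DESeq2 called 0. An unadjusted edgeR p under 0.05 was reached by 4 of these storage genes and by 3698 of the 15952 genes tested. Their median log2 difference was 0.20 against 0 over all genes, with 7 of 9 positive.

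Of 12 export and hepcidin axis genes, 2 rose, where 4.58% of all genes did. Cp, ceruloplasmin, a copper ferroxidase that works with ferroportin, stood at 85.7 ± 6.44 CPM in Sham, 125 ± 12.1 CPM in I/R and 126 ± 32.9 CPM in I/R + ML264. It rose by 0.55 ± 0.14 in I/R (adjusted p = 0.0327). Smad6, an inhibitor of the bone morphogenetic protein signal that drives hepcidin, rose by 1.12 ± 0.30 (adjusted p = 0.0281) from a mean of 0.792 CPM. Of the 10 genes of the iron regulatory protein list edgeR called 0, DESeq2 called 1 and 2 had an unadjusted p under 0.05, with a median of −0.08. The 22 mitochondrial iron and iron-sulfur genes gave 0 by all 3 counts, with a median of −0.02.

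In heme turnover 1 of 16 genes rose, where 4.58% of all genes did, namely Hmox1, heme oxygenase 1, which frees iron from heme. It stood at 1.13, 1.38, 1.7 and 0.916 CPM in Sham, 3, 2.48, 3.74 and 7.08 CPM in I/R, and 1.38, 2.13, 1.56 and 2.51 CPM in I/R + ML264. I/R lay above Sham without overlap, and the treated libraries reached into the values of both. Hmox1 rose by 1.66 ± 0.32 in I/R against Sham (adjusted p = 0.00623), and the treated libraries differed from I/R by −1.11 ± 0.31 (adjusted p = 0.211).

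Of 24 phospholipid and lipoxygenase genes, 3 rose and 1 fell, where 4.58% of all genes were called higher and 3.17% lower. Besides Acsl4, Por, the cytochrome P450 reductase that can feed lipid peroxidation, rose by 0.64 ± 0.14 (adjusted p = 0.0097), from 9.47 ± 0.846 to 14.8 ± 1.89 CPM. Cyb5r1, a reductase with a like role, fell by 0.77 ± 0.20 (adjusted p = 0.0273), from 7.86 ± 1.43 to 4.61 ± 1.02 CPM. The other rise, chosen after its values were seen, was Ptgs2, cyclooxygenase 2 (3.55 ± 0.81, adjusted p = 0.031), whose Sham libraries ran from 0.0724 to 5.97 CPM. The 2 oxidoreductases thus moved in opposite directions.

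Of 23 glutathione, cystine and GPX4 support genes, 2 rose, where 4.58% of all genes did. Slc3a2, the heavy chain of the cystine importer and of other amino acid transporters, stood at 5.88, 5.47, 6.81 and 7.12 CPM in Sham, 8.94, 10.4, 9.57 and 10.9 CPM in I/R, and 7.09, 8.59, 7.79 and 8.16 CPM in I/R + ML264. All treated libraries were below all I/R libraries. Slc3a2 rose by 0.65 ± 0.13 in I/R against Sham (adjusted p = 0.0068), and its difference of −0.33 ± 0.13 between treated and I/R hearts did not pass (adjusted p = 0.367). Txnrd1, thioredoxin reductase, rose by 0.85 ± 0.20 (adjusted p = 0.0194).

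Of 24 genes of other lipid radical control, 4 rose, where 4.58% of all genes did. Gch1, which makes the antioxidant cofactor tetrahydrobiopterin, rose by 1.20 ± 0.30 (adjusted p = 0.0219). Sat1, a polyamine acetyltransferase, rose by 2.05 ± 0.47 (adjusted p = 0.0288), though I/R library 1, at 12 CPM, lay below Sham library 1, at 12.9 CPM. With the Arntl level as a covariate the Sat1 difference was 1.27 (adjusted p = 0.113), and with the Ddx3y and Arntl levels together 1.02 (adjusted p = 0.413). Its call also ended when the 2 groups were fitted alone (adjusted p = 0.0764). Atf4, a stress transcription factor, rose by 0.56 ± 0.16 (adjusted p = 0.0375), and Bach1, a repressor of Hmox1 and other antioxidant genes, named after its values were seen, by 0.50 ± 0.15 (adjusted p = 0.046).

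The calls of Slc39a14, Hmox1, Por and Slc3a2 held in all 12 fits that left out 1 library, with the Ddx3y or the Arntl level alone as a covariate, and within the Ddx3y-high libraries. With both levels as covariates all 4 ended, with log2 differences of 0.38, 1.36, 0.44 and 0.56 (adjusted p = 0.286, 0.238, 0.315 and 0.195). Over all genes, 63 were called in that fit against 1236 in the main fit, so most calls ended there. The call of Smad6 ended without Sham 2, 3 or 4 or I/R 1, 3 or 4, and that of Cp without any 1 of the Sham libraries or I/R 1, 2 or 4. With no filter the Cp call also ended (adjusted p = 0.0556). Cyb5r1 lost its call without Sham 1, 2 or 4 or I/R 1, 2 or 4, and Txnrd1 without Sham 1, 2 or 4. For Gch1 the libraries were Sham 2 and 4 and I/R 2 and 4, for Sat1 Sham 2, 3 and 4 and I/R 2 and 4, and for Atf4 Sham 2 and 3 and all 4 I/R libraries. Without Sham 2 all 7 of these calls ended.

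With the Ddx3y level as a covariate these 7 calls also ended (adjusted p = 0.0759 to 0.118). With the Arntl level those of Smad6, Cp, Txnrd1, Gch1, Sat1 and Atf4 ended (adjusted p = 0.0583 to 0.147) and that of Cyb5r1 held. With both levels all 7 ended (adjusted p = 0.213 to 0.625), with log2 differences of 0.77 for Gch1, 0.57 for Txnrd1 and 0.23 for Atf4. Within the Ddx3y-high libraries Cp, Txnrd1 and Sat1 kept their calls, and Smad6, Cyb5r1, Gch1 and Atf4 lost them (adjusted p = 0.0916 to 0.228).

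The 10 neutrophil markers, of which 7 were tested, summed to 4.83 to 7.47 CPM in Sham, 9.23 to 23.2 CPM in I/R and 5.21 to 22.1 CPM in I/R + ML264. Of these, Cxcr2 alone stood at 3.77 to 5.4, 4.21 to 9.06 and 3.62 to 10.2 CPM. In I/R against Sham 3 of the 7 tested rose in edgeR, where 4.58% of all genes did. DESeq2 called 5, and all 7 log2 differences were positive. Platelet markers summed to 13.8 to 38.7, 20.1 to 215 and 16.2 to 155 CPM. Macrophage markers overlapped (113 to 196, 117 to 151 and 125 to 147 CPM). Of these 12, 1 fell in I/R, Adgre1 by 0.68 ± 0.16 (adjusted p = 0.0174), where 3.17% of all genes fell. The part of these cells in the rises was not tested.

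**Figure D4:**
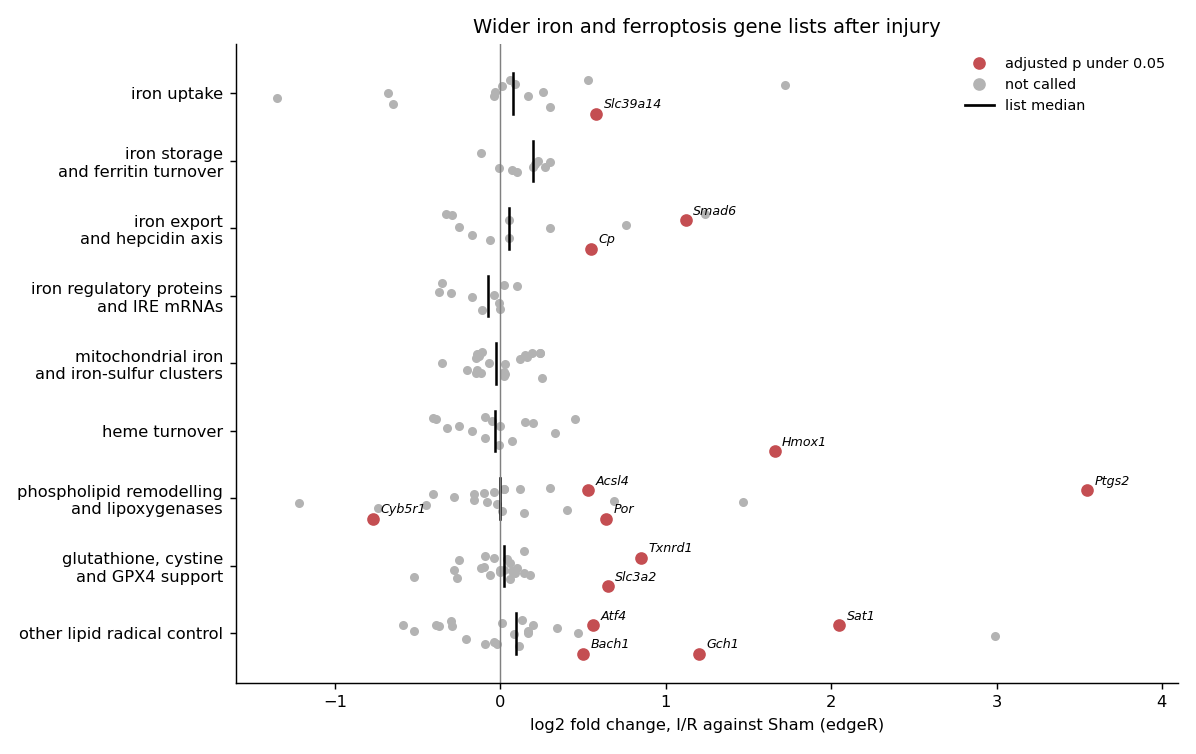
Log2 fold change in I/R against Sham (horizontal axis, edgeR) of the tested genes of 9 iron and ferroptosis lists, 1 point per gene; red points have an adjusted p under 0.05 and the black bar is the list median. Hmox1 at 1.66 is the 1 red point of heme turnover, and the storage list has none.

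**Figure D5:**
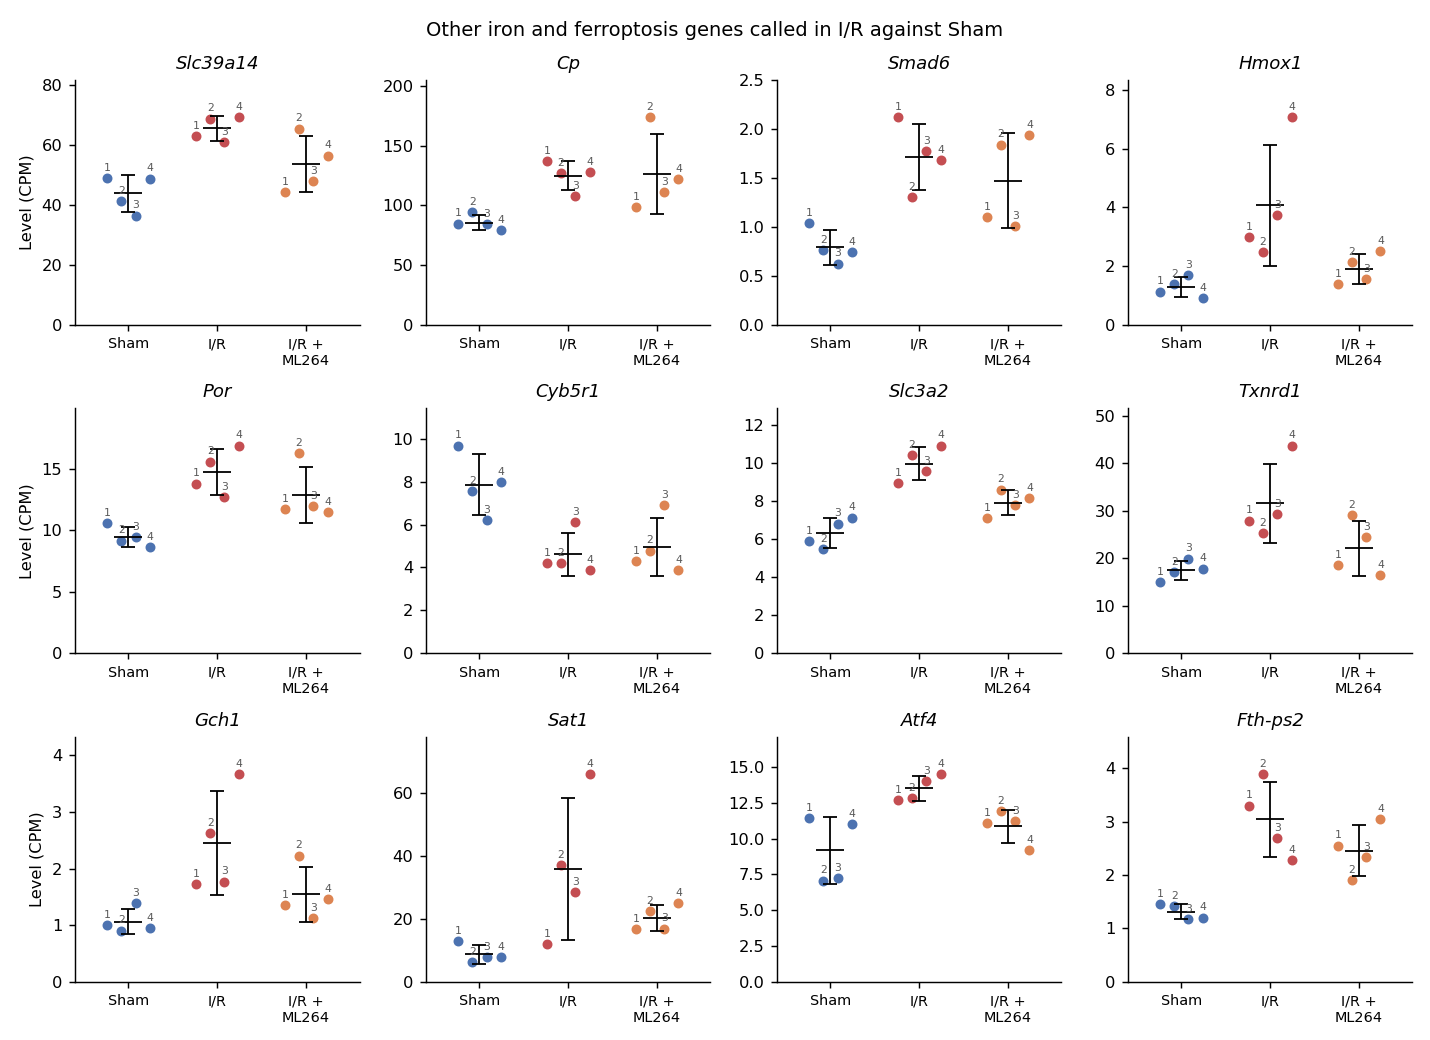
Level in CPM (linear axis from 0) of 12 genes called in I/R against Sham, by library, with group mean and SD; points carry the library number. Slc39a14 runs from 36.4 to 48.9 CPM in Sham and from 60.9 to 69.2 CPM in I/R, while Sat1 overlaps.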

How the data were processed

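The authors deposited estimated counts, without normalization, in 1 table of 104952 transcript rows under 33615 gene symbols. The submitters' processing notes name FastQC, kallisto and GRCm38 (mm10); their versions and the annotation release were not given in the sources used here. Per the labels' protocols, TRIzol gave the RNA and Nextera XT the libraries, a kit that does not mark strand, for paired reads of 100 bp; 2 sequencers are named. Nothing says that libraries came from separate animals, so p-values reflect spread among libraries, part of which may be technical. Ddx3y was 0.31 and 0.23 CPM in I/R 1 and 4 and 50.7 and 49.61 CPM in I/R 2 and 3. It was 0.11 and 0.53 CPM in I/R + ML264 1 and 2 and 41.5 and 46.16 CPM in 3 and 4. The libraries of each of these groups thus did not all come from the same animal. Replicates differed by more than counting noise (chi-square per gene 7.76 to 75.82).

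Within a gene, the transcript with most counts differed between libraries as often as if the order were random: for genes with 3 transcripts, 33.5% of library pairs shared it (33.3% for a random order). Ireb2 is an example, with 84.5% to 90.8% of its counts on 1 transcript, and not the same one in each library. Transcript values were therefore summed per gene and rounded, and the planned test of transcript shares was left out.

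Genes were kept by filterByExpr (minimum 10 counts). The 3 comparisons were fitted jointly on the 12 libraries by edgeR 4.0.16 (R 4.3.3; TMM, robust quasi-likelihood), after tests on simulated data. Ratios were compared by exact permutation over libraries. GENCODE M21 (GRCm38) gave the annotation, and 94.7% of transcripts matched it by version; genes with over 25% of 31-base words shared with other genes are called uncertain. Alternatives were DESeq2 1.42.0, other factors, filters and spreads, the replicate number as a block, Ddx3y or Arntl as a covariate, and each library left out. Using both covariates together and using only the Ddx3y-high libraries were chosen after seeing the data. From the wider lists, up to 3 called genes per list and comparison with the smallest adjusted p are named, and for each called gene of the 9, the 3 genes most correlated with it. The members and lists were chosen with earlier results of these data known.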

Additional observations from a re-analysis of the deposited data

Results flagged for a closer look

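In 3 of the 39 groups of 4 values checked, 1 library stood far from the other 3 by Dixon's test, and chance gives about 1 in 20. Fth1 was 75.8 CPM in I/R + ML264 library 3 and 60.9 to 62.5 CPM in the other 3. Ftl1 was 18.6 CPM in Sham library 1 and 15.2 to 15.5 CPM in the others. Slc11a2 was 17.7 CPM in Sham library 3 and 20.6 to 20.9 CPM in the others.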

How the results depend on the processing

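In I/R against Sham, 1236 genes were called, 507 with the Ddx3y covariate, 641 with Arntl, 63 with both, 553 in the Ddx3y-high libraries and 659 to 1485 without 1 library. Of the 9 genes, 1 was called, 3 with DESeq2 or upper-quartile factors, 2 with a non-robust spread, 0 with either or both covariates or in the Ddx3y-high libraries, and 0 to 2 without 1 library. Upper-quartile factors gave 620 higher and 676 lower, against 731 and 505.

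Between treated and untreated I/R hearts, 8 genes were called, 144 with DESeq2, 22 with no filter, 2 with a non-robust spread, 25 with both covariates, 2 in the Ddx3y-high libraries and 0 to 85 without 1 library, and none of the 9 in any. Against Sham, 46 were called, 354 with DESeq2, 78 with no filter, 72 with a non-robust spread, 27 with only the 2 groups, 11 with Ddx3y, 13 with Arntl, 0 with both, 27 in the Ddx3y-high libraries and 9 to 101 without 1 library. The Tfrc call there, 1 of the 9, went to 0 with no filter or any covariate and was 0 to 1 without 1 library. Where edgeR called 0 genes with both covariates, 1194 had an unadjusted p under 0.05. The causes were not tested.

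The labels do not say that a replicate number marks paired samples, and the values did not settle it. Correlations between same-numbered libraries were −0.11 to 0.10. In I/R + ML264 against I/R, libraries matched their own number best in 3 of 4 cases, and in the other comparisons in none. With the number as a block, 1009, 1 and 19 genes were called, Tfrc was called in I/R against Sham (−0.70, adjusted p = 0.0245), Acsl4 (adjusted p = 0.0578), Sat1 (0.0828) and Atf4 (0.0566) were not, and Cp in I/R + ML264 against I/R was −0.01.

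The values whose sign turned were of differences that were not called. Between treated and untreated I/R hearts, in the Ddx3y-high libraries, Fth1 was 0.16, Ireb2 0.09 and Cp −0.02; without 1 library they were −0.11 to 0.11, −0.07 to 0.07 and −0.18 to 0.11, and Cyb5r1 −0.09 to 0.27. Against Sham with both covariates, Ftl1 was −0.15, Slc40a1 0.19 (0.11 with Arntl), Slc11a2 −0.01, Acsl4 −0.14 (−0.05 in the Ddx3y-high libraries) and Atf4 −0.12. Without 1 library, Slc40a1 was −0.17 to 0.03, and the ratio of Fth1 to Ftl1 −0.05 to 0.19 against Sham and −0.17 to 0.03 in I/R against Sham. Transcript shares were not run.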
